A study of Mus musculus with 8 samples.

Results

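The comparison described here sets mouse sarcoma cells carrying Cas9 and a guide RNA against Mif (sgMif, labelled as Mif-knockout) beside cells carrying Cas9 and a non-targeting control guide (sgSCR, labelled as Mif-wildtype). Its members were chosen by sample title and are 4 of the 8 bulk RNA sequencing libraries of the series, 2 in each group. Both groups shared the same p53-/- Ccne1+ sarcoma cells of C57BL/6 strain, which arose from mesenchymal stem cells that lacked p53 and overexpressed cyclin E1. The cells formed tumours under the skin of recipient mice, and the tumour cells were purified by fluorescence-activated sorting before RNA extraction. The other 4 libraries carried a control hairpin (shSCR) or a hairpin against Mif (shMif), 2 of each, and here they share the estimate of spread and give a place for the guide values to be read against. The study asked how Mif made by the tumour bears on pathways within those cells.

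Macrophage migration inhibitory factor, the product of Mif, is a small cytokine that many cell types hold ready-made and release. It acts on cells that display CD74, a partner chain of MHC class II molecules, and tumours often make it in quantity. It is known both for holding macrophages at sites of inflammation and for restraining p53, and the cells studied here had lost p53.

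Estimated counts came to 37573433 and 19677400 reads in sgSCR 1 and 2 and to 21825188 and 45555554 reads in sgMif 1 and 2. Whether the 2 libraries of a group stem from different mice is not stated in the labels. The p-values therefore reflect the spread between libraries, which may be technical. Levels are given in CPM, normalised counts-per-million units, and 16309 genes passed a filter on low counts. Genes were called at an adjusted p under 0.05 in edgeR's quasi-likelihood test. Reads on olfactory receptor genes, which solid tumour cells are not known to use, made up 2544 and 1418 CPM in sgSCR 1 and 2, against 1330 and 380 CPM in sgMif 1 and 2, so sgMif 2 stood apart. The part of this library difference in the results was not tested. The 12 markers of sarcoma and mesenchyme summed to 9981 to 12419 CPM in the 4 libraries. Of markers of other cells, the 14 myeloid genes summed to 237 and 161 CPM in sgSCR against 132 and 101 CPM in sgMif, and the 14 genes of granulocytes and mast cells to 27.3 and 13.2 against 11.8 and 4.15 CPM. The mast cell protease gene Tpsb2 held 327 and 52 reads in sgSCR 1 and 2 against 0 and 31 in sgMif 1 and 2. Of the neutrophil genes in that list, Ly6g, Camp and Elane had 0 reads in all 4, but S100a8 and S100a9 were present. S100a8 held 2.49 and 0.75 CPM in sgSCR against 4.24 and 0.52 in sgMif, and S100a9 5.88 and 1.65 against 6.21 and 1.35. Their pairs overlapped, and they made up most of the list's sum in sgMif 1. The 10 genes of B and plasma cells summed to 29.1 and 91.8 against 14.5 and 4.35 CPM. Of 11 marker lists of other cells, 8 had a lower summed level in both sgMif libraries than in both sgSCR libraries, these 3 among them. Such sums can rest on 1 gene. In the endothelial list Pecam1 held 246 and 261 of 287 and 298 CPM in sgSCR, and 111 and 25 of 229 and 53 in sgMif. Of the 14 endothelial genes, 12 had a positive log2 fold change, 1 of them with no overlap of the pairs. The 2 sgMif libraries differed here. Relative to the sgSCR mean, the median endothelial gene lay at 1.27 in sgMif 1 and at -0.50 in sgMif 2 (log2). In the Schwann cell list Pmp22 held 139 and 105 of 144 and 113 CPM in sgSCR. The summed level of pericyte markers was higher in both sgMif libraries, at 281 and 311 against 539 and 399 CPM. Cspg4 made up most of that sum, at 234 and 271 against 464 and 350 CPM. Of the 7 pericyte genes tested, 3 were positive and 4 negative, with a median log2 fold change of -0.57. The sums of 2 lists overlapped, those of dendritic cells with MHC class II and of skeletal muscle fibres. None of the 14 myeloid markers passed the edgeR test, with 1 higher and 4 lower at an unadjusted p under 0.05 and 3 lower in DESeq2. In bulk samples, fewer cells of a type and less RNA per cell cannot be told apart.

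Mif (ENSMUSG00000033307, chr10:75859353-75860240, minus strand, mm10) was measured first because it checks the labels. It held 377 and 455 CPM in sgSCR 1 and 2, against 221 and 222 CPM in sgMif 1 and 2, and the pairs did not overlap. Its log2 fold change of -0.91 ± 0.32 (SE) did not pass, at an edgeR adjusted p of 0.215. The sources used here do not give the place of the cut, and a transcript with a shifted reading frame can still be sequenced. Nearly all of these reads lay on the protein-coding transcript, with 14899 and 8983 reads in sgSCR 1 and 2 and 4756 and 9661 in sgMif 1 and 2, against 90.5 to 186 reads on the retained-intron transcript in the 4 libraries.

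Between sgMif and sgSCR, 161 of 16309 genes passed (0.987%), of which 60 were higher in sgMif (0.368%) and 101 lower (0.619%). The changes were larger downward. The median fold over the called genes was 2.15 for those that rose and 3.49 for those that fell, and the smallest fold on either side was 1.74. Over all genes tested the median log2 fold change was -0.01, and 49.4% were positive. The lowest adjusted p was 0.0148, so every call stood near the threshold of 0.05, and 2706 genes had an unadjusted p under 0.05. Of the called genes, 158 were protein-coding, 2 were processed pseudogenes and 1 was an immunoglobulin gene. The 2 pairs of libraries did not overlap for any called gene, which also held for 8374 of the 16309 genes tested. Almost all of the calls in edgeR were lost when any 1 of the 4 sgRNA libraries was left out. All 161 genes then kept their direction, which the lack of overlap between their pairs largely fixed in advance. Counts scaled by transcript length gave 5 higher and 13 lower calls, and DESeq2 gave 483 and 507.

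**Figure D1:**
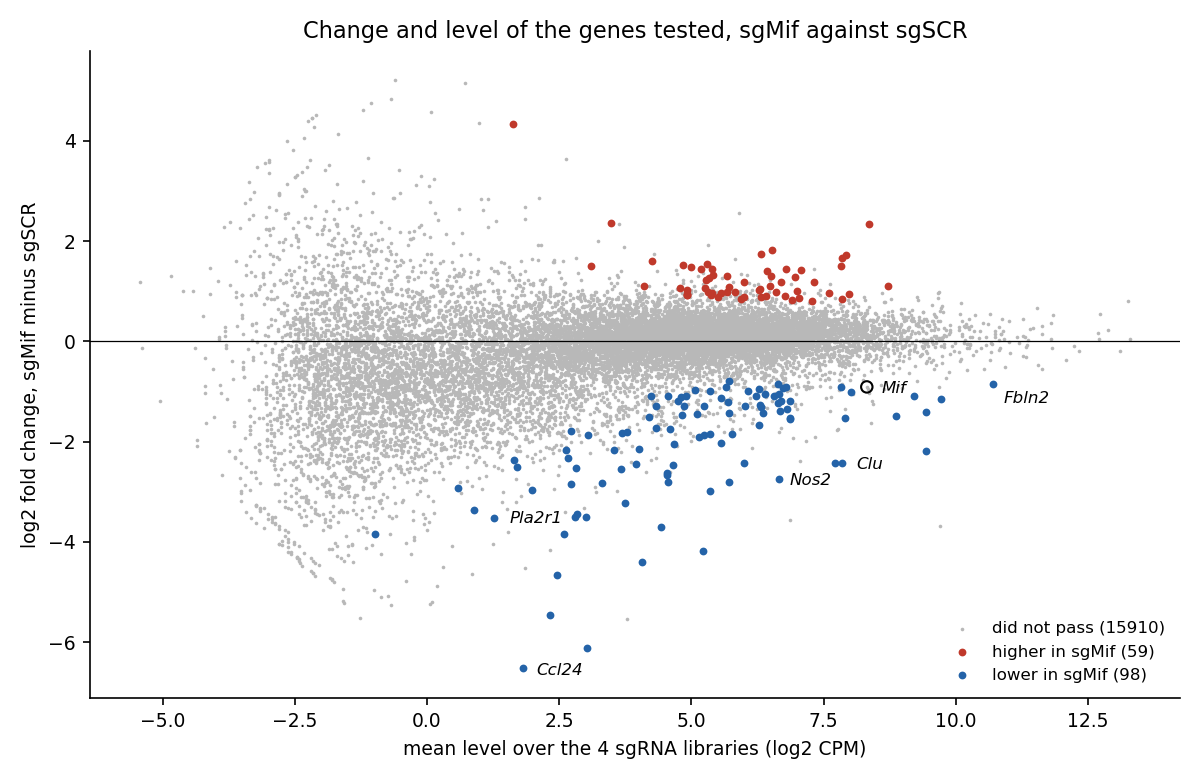
Mean level over the 4 sgRNA libraries (horizontal, log2 CPM) against the log2 fold change of sgMif over sgSCR (vertical) for the 16067 genes with reads in both groups. Red and blue points are the 59 higher and 98 lower called genes among them and the open circle is Mif, and the blue points reach farther from 0 than the red ones.

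The hairpin libraries, which entered this test only through the shared estimate of spread, were set beside the sgMif and sgSCR pairs for each called gene. For 37 of the 60 genes that rose, the sgMif pair lay above all 6 other libraries while the sgSCR pair did not lie below all of the hairpin libraries. For 8 the sgSCR pair alone lay below all 6 others, and for 15 the hairpin libraries lay between the pairs. Of the 101 genes that fell, the sgMif pair alone lay below the other 6 libraries for 43, the sgSCR pair alone lay above the other 6 for 30, and the hairpin libraries lay between for 28. Over all genes whose 2 pairs did not overlap, these shares were 30.3% for sgMif alone, 30.3% for sgSCR alone, 2.97% between, and 36.5% with neither pair beyond the other 6. For most of the higher genes the sgMif pair alone thus lay beyond the other 6, whereas for the lower genes it was the sgMif pair, the sgSCR pair or both. A call needs a clear gap between the pairs, which the genes behind the shares over all genes need not have. The other 6 libraries also include the shMif pair, itself targeted at Mif, so a placement does not give the source of a change. This placement was chosen after the values were seen and has no test of its own.

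Among the cell-cycle genes that rose, Nek2, a kinase that separates the centrosomes, held 26.3 and 20.5 CPM in sgSCR 1 and 2, against 53.4 and 55.5 in sgMif 1 and 2 (log2 fold change 1.22 ± 0.18 SE, edgeR adjusted p = 0.0333). Cdc25b, the phosphatase that starts entry into mitosis, held 35.1 and 31.7 CPM against 66.5 and 75.4 (1.09 ± 0.15, edgeR adjusted p = 0.033). Both sgMif libraries lay above both sgSCR libraries, and also above the hairpin libraries, which held 24.6 to 31.2 CPM of Nek2 and 28.4 to 36.4 of Cdc25b. Rbl1, the pocket protein p107 that binds E2F factors, rose from 22.4 and 27.1 to 49.7 and 53.6 CPM (1.06 ± 0.16, edgeR adjusted p = 0.0333). Cdkn1a, the gene of the cyclin-dependent kinase inhibitor p21, went the other way, from 123 and 115 to 43 and 45.5 CPM (-1.42 ± 0.20, edgeR adjusted p = 0.033), with the hairpin libraries between at 58.7 to 89.1 CPM. Cdkn1a and Rbl1 were the called members of a list of 27 measured cyclins, kinase inhibitors and E2F factors, whose median log2 fold change was 0.23. The lists were drawn up without 56 genes that earlier results of these data had covered, 43 of them called, and 131 of the 161 called genes are in no list. A count of called members therefore covers the listed genes alone, and cyclin B1 (Ccnb1), which rose 2.27-fold, is one of those outside.

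Chromosome condensation was the list with the most called members. Of 21 genes of condensin and cohesin, the ring complexes that fold and hold chromosomes, 4 rose, all of them condensin subunits, and 20 of 21 were positive with a median of 0.48. Smc2, the ATPase shared by both condensins, held 92.6 and 77.5 CPM in sgSCR against 162 and 178 in sgMif (1.00 ± 0.17, edgeR adjusted p = 0.0461). Ncapd3 of condensin II rose from 19.8 and 21.1 to 38.3 and 40.8 CPM (0.95 ± 0.14, edgeR adjusted p = 0.0334). Ncaph and Ncapd2 of condensin I rose 1.9-fold and 1.79-fold. The pairs did not overlap for any of these 4 subunits, and the hairpin libraries held 94 to 126 CPM of Smc2. Over the condensin and cohesin list shSCR also lay above sgSCR, with a median log2 difference of 0.41.

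Other called genes of division and chromatin had folds of the same order. They were Brca1 of homologous recombination (2.03-fold), the ribonucleotide reductase subunit Rrm2 (1.87-fold) and Uhrf1 (1.74-fold), which brings the maintenance DNA methyltransferase to replicated DNA. Chaf1a, a subunit of the chaperone that loads histones behind the fork, rose 1.86-fold, and the mitotic kinase Aurkb 1.94-fold. The mitotic kinesins Kif22 and Kifc1 rose 1.97-fold and 1.85-fold. Chaf1a, Aurkb, Kif22 and Kifc1, and below Arhgap11a, Zfp367, Insig1 and Ammecr1, were named after their values were seen.

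The promoters of the higher genes were read for short sequence elements. Each window was the 250 bases before the RefSeq start site (GRCm38.p6), matched by symbol for 45 of the 60 higher genes, 67 of the 101 lower genes and 11561 genes tested in all. The CCAAT box, the letters that the factor NF-Y reads, was present on either strand in 64.4% of the windows of higher genes, 34.3% of those of lower genes and 36.6% of all. TTTGAA, the CHR element of many mitotic genes, was present in 20%, 16.4% and 11.5%, and CCAAT and TTTGAA together in 15.6%, 8.96% and 4.39%. The 2 elements shared bases in 13 of the 11561 windows. The E2F core GCGGGAA was in 8.89%, 1.49% and 6.42%, and the hypoxia core ACGTG in 20%, 13.4% and 20.4%. The CArG box, which serum response factor reads, was in 0 of 45 and 0 of 67 windows of called genes and in 1.19% of all. Windows of higher genes had a median of 61.6% G and C bases, against 57.2% for lower genes and 59.2% for all. A match describes letters and does not show that a factor binds there.

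The windows of 5 higher genes are shown because they place the CCAAT box beside the genes described, with CCAAT and TTTGAA in capitals on either strand (ATTGG and TTCAAA are their reverse complements). Arhgap11a, a GTPase-activating protein of dividing cells, is at chr2:113848662-113848911 on the minus strand, and Zfp367, a zinc finger factor, at chr13:64153200-64153449 on the minus strand. Smc2 is at chr4:52438971-52439220 on the plus strand, Kif22 at chr7:127042421-127042670 on the minus strand, and Nsdhl at chrX:72918271-72918520 on the plus strand. Each reads 5′ to 3′ along the gene.
Arhgap11a: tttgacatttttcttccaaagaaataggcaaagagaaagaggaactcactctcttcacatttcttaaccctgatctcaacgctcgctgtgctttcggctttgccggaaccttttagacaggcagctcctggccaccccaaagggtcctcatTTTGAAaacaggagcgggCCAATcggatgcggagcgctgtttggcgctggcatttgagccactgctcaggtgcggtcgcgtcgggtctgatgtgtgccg
Zfp367: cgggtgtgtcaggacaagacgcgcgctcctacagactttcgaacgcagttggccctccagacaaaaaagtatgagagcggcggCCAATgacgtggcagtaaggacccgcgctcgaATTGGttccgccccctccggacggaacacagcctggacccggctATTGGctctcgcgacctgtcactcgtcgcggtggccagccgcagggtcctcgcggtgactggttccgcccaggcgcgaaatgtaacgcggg
Smc2: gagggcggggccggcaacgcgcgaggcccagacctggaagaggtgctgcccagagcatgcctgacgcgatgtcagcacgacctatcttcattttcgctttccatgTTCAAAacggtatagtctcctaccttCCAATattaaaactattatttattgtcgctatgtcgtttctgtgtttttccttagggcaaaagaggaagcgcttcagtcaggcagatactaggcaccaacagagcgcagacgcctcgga
Kif22: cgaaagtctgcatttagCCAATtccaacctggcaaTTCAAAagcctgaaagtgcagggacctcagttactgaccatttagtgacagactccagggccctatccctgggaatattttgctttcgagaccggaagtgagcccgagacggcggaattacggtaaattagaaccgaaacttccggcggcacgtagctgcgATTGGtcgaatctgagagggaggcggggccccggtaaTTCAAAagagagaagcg
Nsdhl: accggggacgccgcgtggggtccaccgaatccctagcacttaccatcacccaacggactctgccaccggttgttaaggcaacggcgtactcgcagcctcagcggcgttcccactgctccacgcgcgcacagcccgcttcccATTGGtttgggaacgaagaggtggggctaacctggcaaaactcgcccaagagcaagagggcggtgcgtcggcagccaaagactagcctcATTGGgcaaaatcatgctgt

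The windows of Arhgap11a, Smc2 and Kif22 hold both elements, and those of Zfp367 and Nsdhl hold only the CCAAT box. Arhgap11a rose from 53.4 and 49.2 CPM in sgSCR to 104 and 107 in sgMif, and Zfp367 from 26.1 and 31.1 to 55.5 and 52.6. Nsdhl, a sterol enzyme, rose from 26.2 and 19.2 to 64 and 59.1 CPM. The pairs did not overlap for any of the 5 genes.

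Genes of sterol synthesis and lipoprotein uptake were also among the called higher genes. Nsdhl, which removes a methyl group on the way to cholesterol, had a log2 fold change of 1.44 ± 0.24 (SE, edgeR adjusted p = 0.04). Lss, the cyclase that forms lanosterol, rose from 27 and 21.3 CPM in sgSCR to 61.6 and 59.6 in sgMif (1.32 ± 0.23, edgeR adjusted p = 0.0451). For both genes the sgMif libraries lay above the other 6. Lrp8, a lipoprotein and reelin receptor, rose from 75.8 and 68 to 192 and 161 CPM (1.29 ± 0.22, edgeR adjusted p = 0.0405), with the hairpin libraries between, at 79.6 to 118 CPM. Insig1, which holds back the sterol sensor and is itself a target of it, rose 2.03-fold, and its level in the hairpin libraries was 25.4 to 49.7 CPM.

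In the list of fatty acid synthesis and desaturation 1 gene rose. Scd1 (ENSMUSG00000037071, chr19:44394455-44407879, minus strand), the desaturase that makes oleate, held 51.5 and 52.8 CPM in sgSCR against 125 and 132 in sgMif, a log2 fold change of 1.30 ± 0.14 (SE, edgeR adjusted p = 0.0189). It was the called gene among 19 measured members, whose median was 0.62, with 16 positive. Acly, Acsl4 and Fasn, which make acetyl-CoA, activate fatty acids and build palmitate, did not pass, at 0.71, 0.92 and 0.89 (edgeR adjusted p = 0.0559, 0.0591 and 0.0595), and with counts scaled by transcript length Acsl4 was at -0.04. DESeq2 called 9 members higher. The elongase gene Elovl6, outside the list, rose 2.74-fold. On the side of breakdown, Cpt1a, which passes fatty acids into mitochondria for oxidation, fell from 73.4 and 79.3 to 30.7 and 25.8 CPM (-1.43 ± 0.15, edgeR adjusted p = 0.0148), with the hairpin libraries at 49.7 to 77.7. The other 20 genes of fatty acid oxidation did not pass, and the list's median was 0.04. In the list of sterol export and lipoprotein handling, 18 of 20 members were negative with a median of -0.54, while its called gene was Lrp8, which rose. Abca1, the cholesterol exporter, held 108 and 77.1 CPM in sgSCR against 39.3 and 16.1 in sgMif and did not pass (-1.75 ± 0.38, edgeR adjusted p = 0.0764).

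Several genes on the higher side belonged to neither group. Piezo2, a channel opened by stretch of the membrane, held 20.4 and 18.2 CPM in sgSCR against 49.2 and 56.4 in sgMif (1.45 ± 0.19, edgeR adjusted p = 0.032). F2rl1, the protease-activated receptor PAR2, rose from 45.4 and 48.7 to 104 and 146 CPM (1.41 ± 0.23, edgeR adjusted p = 0.0373). Adh7, a retinol and alcohol dehydrogenase, rose from 21.3 and 26.1 to 52.9 and 61 CPM (1.27 ± 0.18, edgeR adjusted p = 0.033). For F2rl1 and Adh7 the sgMif pair also lay above the hairpin libraries. Esm1, an endothelial and tumour proteoglycan, showed another order. It rose from 27.7 and 31.6 to 61.3 and 84.2 CPM (1.30 ± 0.18, edgeR adjusted p = 0.033), while the hairpin libraries held 237 to 276 CPM, above all 4. Col4a5, a chain of basement membrane collagen, rose from 10.6 and 11.3 to 21.4 and 25.7 CPM (1.11 ± 0.18, edgeR adjusted p = 0.0399) and was the called gene among 26 measured collagens, of which 22 were positive (median 0.45). Outside that list the collagen genes Col24a1 and Col6a5 fell, Col24a1 from 26 and 31.2 to 13.1 and 10.3 CPM and Col6a5 from 8.9 and 10.7 to 0.183 and 0.248 CPM.

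A few further called genes were named after their values were seen, to show the rest of the higher side. Lbr, a sterol reductase that also ties chromatin to the nuclear envelope, rose from 38.8 and 29.8 to 65.3 and 70.7 CPM. Usp1, which removes ubiquitin from Fanconi proteins, rose from 92.8 and 91.7 to 158 and 180 CPM, and Phf19, a Polycomb-associated protein, from 21.5 and 20.4 to 38.4 and 41.2. These folds were 1.98, 1.83 and 1.9, with no overlap of the pairs. Iqgap3, a scaffold of proliferating cells, rose 1.97-fold, and Slc30a5, a zinc transporter of the secretory pathway, 1.81-fold. Adamtsl2, a matrix protein of microfibrils, had 0 reads in both sgSCR libraries and 38 and 143 reads in sgMif 1 and 2. Against 3 counts in each sgSCR library its mean of 2.48 CPM was at least 22-fold higher, while the hairpin libraries held 0.207 to 0.566 CPM.

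**Figure D2:**
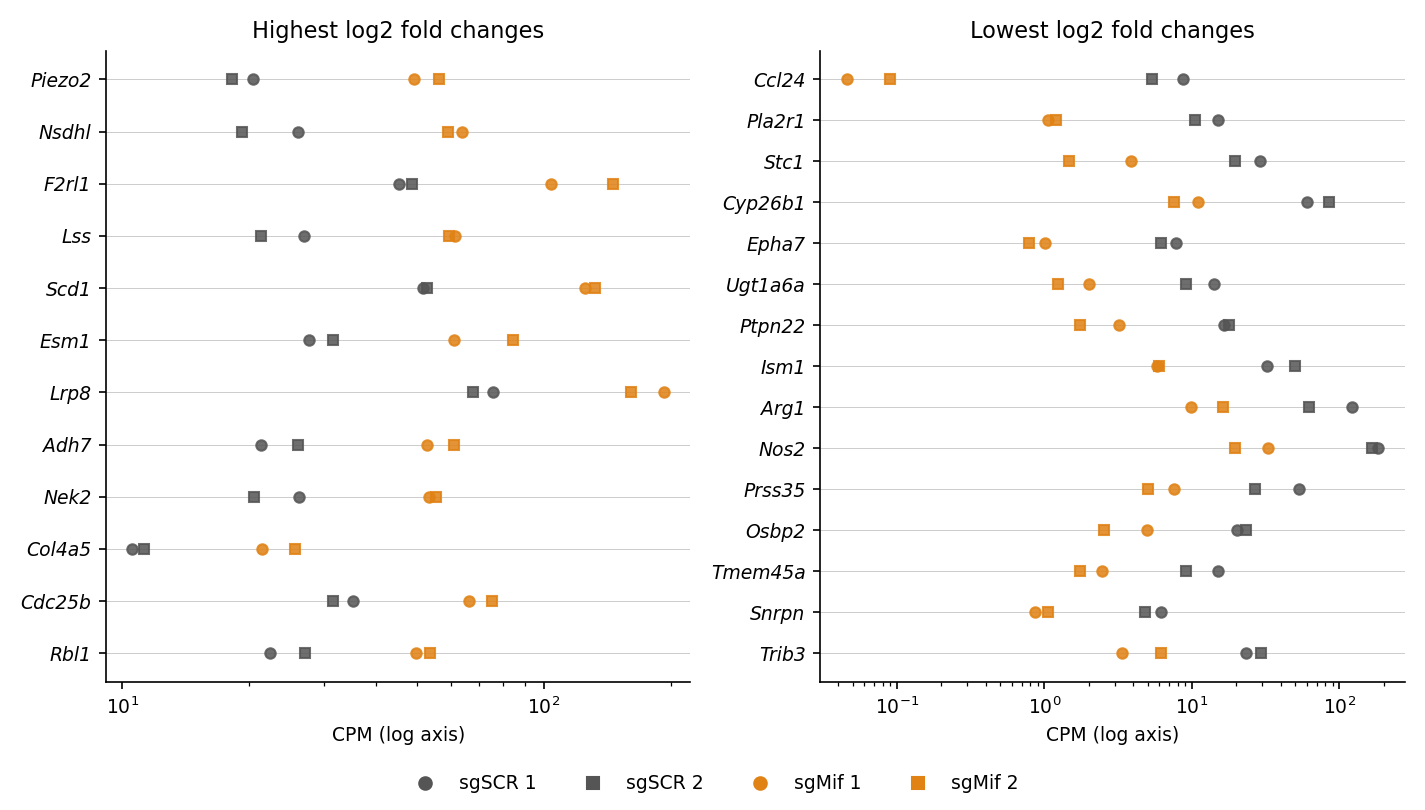
Normalised level (CPM, log axis) in each of the 4 sgRNA libraries for 12 of the genes with the highest and the 15 with the lowest log2 fold changes among those named by the rule. Grey points are sgSCR, orange points sgMif, circles library 1 and squares library 2. The colours do not overlap within any gene, which the rule required.

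Some lists lay on the higher side nearly as a whole with few or no members past the threshold. Of the 25 genes of the kinetochore and spindle checkpoint, which join chromosomes to the spindle, all 25 were positive with a median of 0.72. The pairs did not overlap for 24 of them, which also held for 4420 of the 8059 positive genes among all tested. None of the 25 passed in edgeR, although 18 had an unadjusted p under 0.05 and DESeq2 called 10. Incenp, the scaffold of the Aurora B complex, held 49.9 and 51.6 CPM in sgSCR against 84.8 and 83 in sgMif (0.72 ± 0.13, edgeR adjusted p = 0.0502), and Bub1, a checkpoint kinase, 35.9 and 27.2 against 56.1 and 68.8 (0.98 ± 0.19, edgeR adjusted p = 0.0618). Aurkb, the kinase of that complex, and Usp1 of Fanconi repair are called genes outside these lists. The 22 genes of homologous recombination and Fanconi repair had a median of 0.66, with 21 positive and Brca1 called. Nucleotide synthesis had 20 of 23 members positive, a median of 0.43 and Rrm2 called.

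All 32 proteasome subunits were positive, with a median of 0.34 and a highest log2 fold change of 0.59. None passed in edgeR, 14 had an unadjusted p under 0.05, and DESeq2 called 6. Psmd2, a subunit of the particle that feeds substrates in, held 251 and 263 CPM in sgSCR against 379 and 358 in sgMif (0.52 ± 0.13, edgeR adjusted p = 0.103). In ribosome biogenesis 23 of 24 were positive with a median of 0.29. None passed in edgeR, with 6 at an unadjusted p under 0.05 and 1 in DESeq2. Of 27 genes of smooth muscle and actomyosin, the contractile apparatus, 23 were positive (median 0.50), none passed in edgeR, 16 had an unadjusted p under 0.05 and DESeq2 called 10. Acta2, smooth muscle alpha actin, is outside this list and rose, from 106 and 110 CPM in sgSCR to 660 and 435 in sgMif (2.34 ± 0.27, edgeR adjusted p = 0.0196). Tpm1, a tropomyosin that lines actin filaments, held 616 and 537 CPM in sgSCR against 1052 and 1045 in sgMif (0.86 ± 0.17, edgeR adjusted p = 0.0636), and the hairpin libraries, at 739 to 984 CPM, lay between. For this list the hairpin controls also lay above sgSCR, with a median log2 difference of 0.41 between shSCR and sgSCR. That difference was 0.38 for the proteasome and 0.36 for ribosome biogenesis. For the lists of the kinetochore, homologous recombination and nucleotide synthesis it was -0.13, -0.11 and 0.09.

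**Figure D3:**
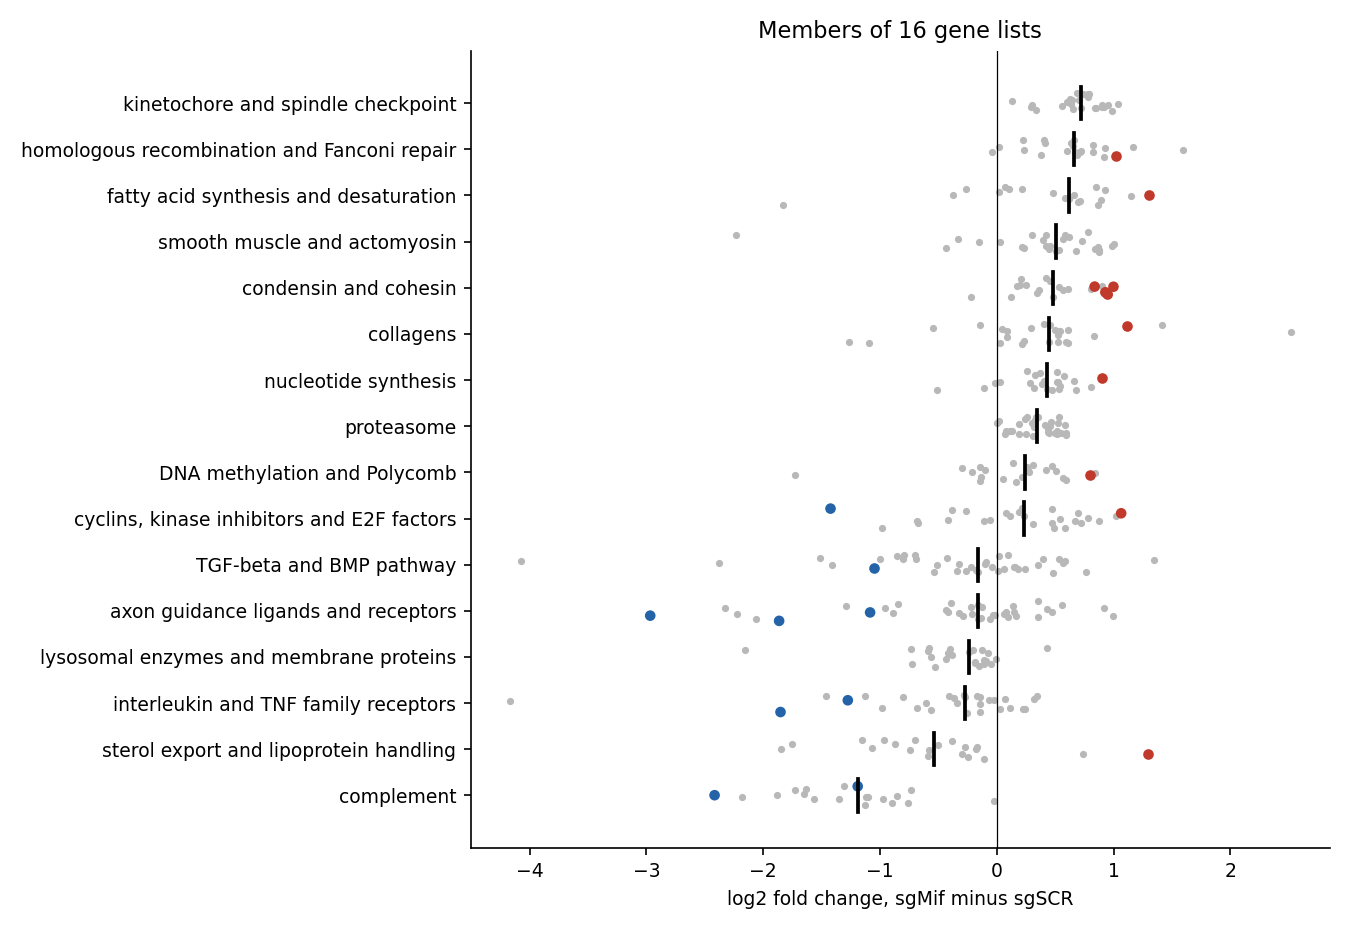
Log2 fold change of sgMif over sgSCR (horizontal) for the measured members of 16 gene lists, with the median of each list as a black bar. Red and blue points are called genes and grey points are not, and the medians run from 0.72 for the kinetochore to -1.19 for complement.

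On the lower side, the largest change among the genes named was that of Ccl24, a chemokine that draws eosinophils. It held 345 and 107 reads in sgSCR 1 and 2 against 1 and 4 reads in sgMif 1 and 2 (8.68 and 5.33 against 0.0456 and 0.0902 CPM), and its log2 fold change of -6.52 ± 1.09 (SE, edgeR adjusted p = 0.0404) rests on those few reads. The hairpin libraries held 0.114 to 0.721 CPM, closer to sgMif than to sgSCR. Pla2r1 (ENSMUSG00000054580, chr2:60417543-60553308, minus strand), a receptor for secreted phospholipase A2, rested on more reads, with 23 and 53 in sgMif 1 and 2. It held 15.1 and 10.4 CPM in sgSCR against 1.05 and 1.19 in sgMif (-3.50 ± 0.31, edgeR adjusted p = 0.0148), and 7.71 to 9.6 in the hairpin libraries.

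Genes of secreted proteins and of enzymes were among the other falls. Stc1, a secreted glycoprotein that is raised by low oxygen, held 28.9 and 19.6 CPM in sgSCR against 3.88 and 1.47 in sgMif (-3.22 ± 0.47, edgeR adjusted p = 0.0333). Ism1, a secreted regulator of growth and metabolism, fell from 32.1 and 50.1 to 5.8 and 5.95 CPM (-2.80 ± 0.28, edgeR adjusted p = 0.0148). Prss35, a secreted serine protease homologue, fell from 53.7 and 26.6 to 7.58 and 5.07 CPM (-2.67 ± 0.38, edgeR adjusted p = 0.033). These differed in where the hairpin libraries lay, at 14.9 to 25.2 CPM for Stc1, 14.6 to 29.4 for Ism1 and 4.1 to 6.49 for Prss35, the last near sgMif. Cyp26b1, which breaks down retinoic acid, followed Prss35 in this, with 60.3 and 85.1 CPM in sgSCR, 11 and 7.55 in sgMif (-2.98 ± 0.31, edgeR adjusted p = 0.0148) and 7.48 to 14.1 in the hairpin libraries. Ccbe1, a secreted factor of lymphatic growth, was among the most abundant, at 355 and 357 CPM in sgSCR against 119 and 128 in sgMif (-1.53 ± 0.14, edgeR adjusted p = 0.0148).

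Nos2 and Arg1 compete for arginine, the first making nitric oxide and the second ornithine. Nos2 held 183 and 167 CPM in sgSCR against 32.8 and 19.7 in sgMif (-2.74 ± 0.32, edgeR adjusted p = 0.0199). Arg1 held 121 and 62.2 against 9.9 and 16.3 CPM (-2.80 ± 0.42, edgeR adjusted p = 0.0333). Both enzymes fell with no overlap of the pairs, and for Arg1 the hairpin libraries, at 48.2 to 105 CPM, lay on the sgSCR side. Hmox1, which breaks down heme, fell from 369 and 336 to 78.7 and 51.9 CPM (-2.43 ± 0.37, edgeR adjusted p = 0.0333) and was the called gene of 29 in the NRF2 and glutathione list, whose median was 0.11. Macrophages can express all of Nos2, Arg1, Hmox1 and Ccl24. Of the 14 myeloid markers, 10 had a negative log2 fold change, 7 of them with no overlap of the pairs, and 4 a positive one, 2 of them with no overlap. Over all genes tested, the pairs did not overlap for 3954 of 8242 negative genes. Cd68 held 36.2 and 20 CPM in sgSCR against 10.9 and 9.51 in sgMif, the pairs of Csf1r overlapped at 23.1 and 11.4 against 12.6 and 9.09, and Cybb was higher in sgMif, at 4.88 and 5.98 against 10.04 and 6.45. The part of myeloid RNA in these falls was not tested. Ptpn22, a phosphatase of immune signalling, held 16.5 and 17.9 CPM in sgSCR against 3.19 and 1.74 in sgMif (-2.83 ± 0.38, edgeR adjusted p = 0.032). Cd33, Fcgr3 and Stab1, which are surface receptors of myeloid cells, fell 3.54-fold, 3.67-fold and 2.2-fold, and these were named after their values were seen.

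A further set had high values in the sgSCR pair alone. Trib3, a pseudokinase switched on by amino acid and endoplasmic reticulum stress, held 23.3 and 29.3 CPM in sgSCR, 3.33 and 6.18 in sgMif (-2.45 ± 0.37, edgeR adjusted p = 0.0333) and 1.84 to 7 in the hairpin libraries. Aldh1l2, an enzyme of mitochondrial folate, held 167 and 156 against 73.1 and 67.9 CPM (-1.20 ± 0.18, edgeR adjusted p = 0.0333), with 54.2 to 88.2 in the hairpin libraries. Pck2 and Gpt2, mitochondrial enzymes of phosphoenolpyruvate and alanine, fell 1.9-fold and 2.13-fold, and the hairpin libraries held 49.2 to 69.1 and 32.5 to 43.9 CPM of them, below both sgSCR libraries. Osbp2, an oxysterol-binding protein, fell from 20.1 and 23.4 to 4.98 and 2.55 CPM (-2.54 ± 0.38, edgeR adjusted p = 0.0333), and Ugt1a6a, a glucuronosyltransferase, from 14 and 9.17 to 2.01 and 1.24 (-2.85 ± 0.48, edgeR adjusted p = 0.0404). Ugt1a6a shares its last exons with its neighbours, so its reads could have been split among them. For Trib3, Aldh1l2, Pck2, Gpt2, Osbp2 and Ugt1a6a a fall by the guide and a high level particular to sgSCR cannot be told apart. That also holds for Angptl4, Fbln2, Col24a1, Col6a5, Bcl6, Txnip and Serpina3n, whose sgSCR pair alone lay above all other libraries. For Col4a5, which rose, the sgSCR pair alone lay below all others. Pck2 and Gpt2 were named after their values were seen.

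The opposite held for genes low in the sgMif pair alone. Tmem45a, a membrane protein, held 14.9 and 9.17 CPM in sgSCR, 2.46 and 1.74 in sgMif (-2.54 ± 0.39, edgeR adjusted p = 0.0338) and 8.07 to 18.6 in the hairpin libraries. Rgs17, which shortens signals of G-protein-coupled receptors, held 30 and 31.9 against 9.95 and 8.68 CPM (-1.73 ± 0.15, edgeR adjusted p = 0.0148), with 56.8 to 64 in the hairpin libraries. Clip4, a microtubule-associated protein, held 36 and 46.4 against 10.5 and 9.56 CPM (-2.04 ± 0.21, edgeR adjusted p = 0.0148), and Flrt3, an adhesion and guidance receptor, 26.7 and 25.9 against 5.07 and 6.74 (-2.15 ± 0.23, edgeR adjusted p = 0.0182). In each of these the sgMif libraries were the lowest of the 8. Snrpn, an imprinted gene of splicing, held 6.16 and 4.84 CPM in sgSCR against 0.867 and 1.06 in sgMif (-2.50 ± 0.41, edgeR adjusted p = 0.0394), and reads on it and on the upstream frame Snurf of the same transcript cannot be told apart.

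Complement had the lowest median of the 50 program lists. Its 19 measured genes, which encode the serum cascade that tags and lyses cells together with its regulators and receptors, were all negative, with a median log2 fold change of -1.19 against -0.01 over all genes, and 2 fell. Clu (ENSMUSG00000022037, chr14:65968483-65981547, plus strand), clusterin, which blocks the final lytic complex, held 318 and 457 CPM in sgSCR against 62.1 and 82.8 in sgMif (-2.42 ± 0.28, edgeR adjusted p = 0.0199). C1s1, the serine protease of the first component, fell from 135 and 152 to 58.4 and 67 CPM (-1.19 ± 0.18, edgeR adjusted p = 0.0333). Both were lowest in sgMif, with the hairpin libraries between, at 130 to 212 CPM of Clu and 71.5 to 115 of C1s1. C1ra and C4b did not pass, at -0.89 and -1.31 (edgeR adjusted p = 0.0549 and 0.0589), nor did the central component C3, at 91.7 and 123 against 45.1 and 24.2 CPM (-1.64 ± 0.41, edgeR adjusted p = 0.105). Of the 19 genes, 16 had an unadjusted p under 0.05 and DESeq2 called 10. C1s1 and C1ra have near-identical copies beside them, among which the authors' quantification could have split reads.

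Summed over the 21 complement genes of the list, the level was 1043 and 1190 CPM in sgSCR 1 and 2, against 426 and 405 in sgMif 1 and 2. The hairpin libraries summed to 951 and 840 in shSCR and to 1301 and 1063 in shMif. The sgMif pair was the lowest of the 4 pairs. Within the 5 libraries with at least 1000 CPM on olfactory receptor genes, which hold sgMif 1 but not sgMif 2, the list's median was -1.18. C1qa, C1qb and C1qc are made by macrophages, C3ar1 and C5ar1 are receptors of myeloid cells, and Clu, C1s1 and C3 can be made by mesenchymal cells. The part of the lower myeloid markers in this list was not tested.

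**Figure D4:**
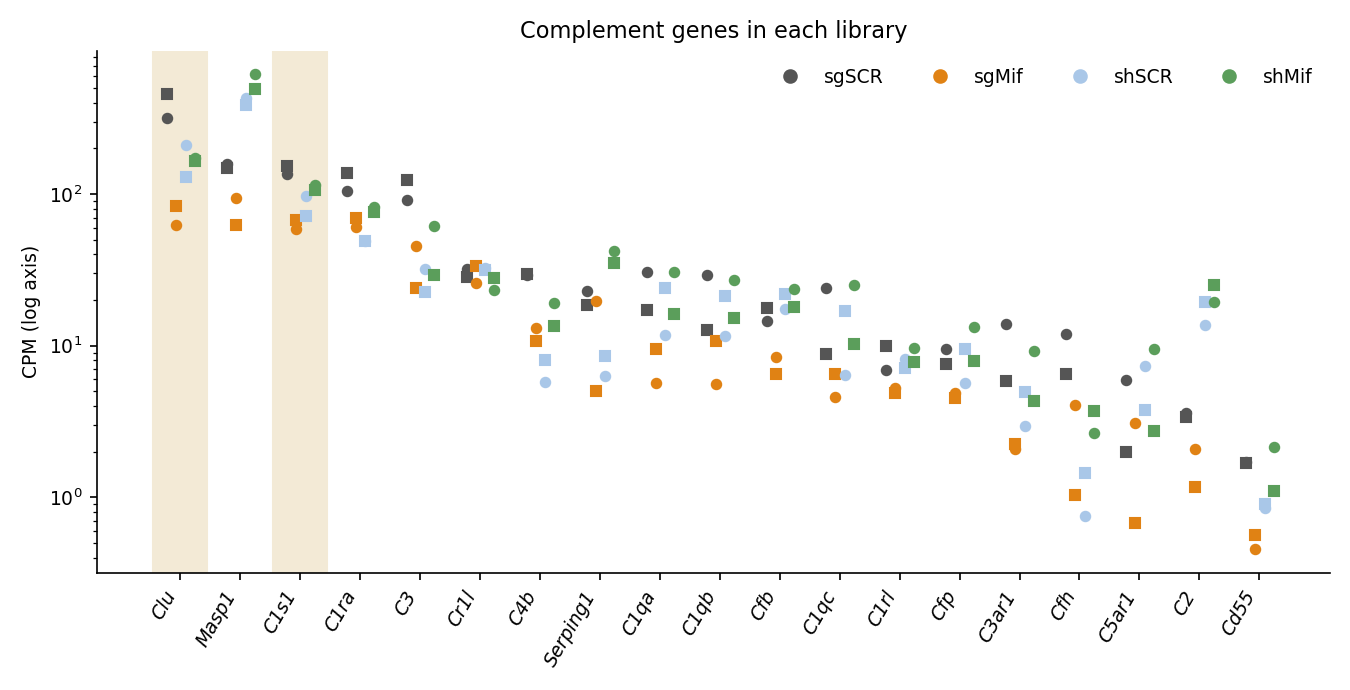
Normalised level (CPM, log axis) of the 19 complement genes tested, in each of the 8 libraries, ordered by mean level in the sgRNA libraries. Colours are groups, circles library 1 and squares library 2, and shading marks Clu and C1s1, the called genes, in which orange sgMif points are the lowest.

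Receptors and ligands formed further lists with more than 1 called gene. Of 37 axon guidance ligands and receptors, 3 fell and the median was -0.16. Plxna4, a semaphorin receptor, held 55.6 and 63.5 CPM in sgSCR against 16.5 and 16.2 in sgMif (-1.86 ± 0.17, edgeR adjusted p = 0.0148). Epha7, an ephrin receptor, fell from 7.85 and 6.13 to 1 and 0.789 CPM (-2.97 ± 0.46, edgeR adjusted p = 0.0338), and Sema3a, a secreted semaphorin, from 122 and 134 to 52.9 and 67.8 (-1.08 ± 0.17, edgeR adjusted p = 0.0338). The receptor Plxna4 and the ligand Sema3a of a shared pathway were thus both lowest in the sgMif pair. Of 29 interleukin and TNF family receptors, 22 were negative and 2 fell. Tnfrsf11b, osteoprotegerin, the decoy receptor that spares bone, fell from 67.9 and 59.6 to 19.2 and 16.2 CPM (-1.85 ± 0.24, edgeR adjusted p = 0.0288). Il4ra, the receptor chain for interleukins 4 and 13, fell from 128 and 94 to 54.8 and 37.3 CPM (-1.28 ± 0.22, edgeR adjusted p = 0.0413).

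Among 37 genes of the PDGF, FGF, VEGF, HGF and EGF families, 2 fell and the median was -0.10. Angptl4, a secreted inhibitor of lipoprotein lipase, fell from 61.3 and 49.7 to 18.8 and 11 CPM (-1.90 ± 0.28, edgeR adjusted p = 0.0333). It was in this list but belongs to none of these families. Ereg, the growth factor epiregulin, fell from 128 and 151 to 54.9 and 63.8 CPM (-1.24 ± 0.21, edgeR adjusted p = 0.0404). In each list below, the gene given was the called member of the list. Tgfbr3, the coreceptor betaglycan, fell 2.08-fold among 39 genes of TGF-beta and BMP signalling (median -0.16). Fbln2, fibulin 2, fell 1.81-fold, from 2021 and 2264 to 1253 and 1109 CPM, among 29 matrix glycoproteins and proteoglycans (median -0.01), and the proteoglycan gene Dcn, outside the list, fell 4.54-fold. Casp6, an executioner caspase, fell 2.32-fold among 25 apoptosis regulators (median 0.01). Arg1 was the called gene in a list of 22 headed checkpoint ligands, galectins and adenosine enzymes (median -0.41), though it is itself none of these. Uhrf1 was the called gene of 22 genes of DNA methylation and Polycomb (median 0.24, without Phf19), and Piezo2 that of 25 channels (median -0.05).

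Other genes that fell were named after their values were seen. Several encode serine proteases or their inhibitors, and they differed in where the hairpin libraries lay. Prss22 held 64.1 and 87.4 CPM in sgSCR, 18.6 and 18.7 in sgMif and 15 to 25.3 in the hairpin libraries, and Serpina3n, an inhibitor made in inflammation, fell 5.01-fold. Prss12 and Tmprss11b fell 3.44-fold and 5.19-fold, and there the hairpin libraries lay above sgMif, at 10.3 to 19.1 and 6.14 to 12.9 CPM. Thbd, thrombomodulin, which turns thrombin from clotting to anticoagulation, fell from 108 and 128 to 37.5 and 36.9 CPM (-1.67 ± 0.19, edgeR adjusted p = 0.0189), with 28.3 to 39.8 in the hairpin libraries. For Prss22 and Thbd the sgSCR pair was the one that stood apart.

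Among enzymes, Xdh, which makes uric acid and superoxide, fell from 162 and 185 CPM in sgSCR to 65 and 54.3 in sgMif, a 2.91-fold change. Sphk1, the kinase that makes sphingosine 1-phosphate, fell 1.99-fold, and Upp1, which splits uridine, 1.93-fold, from 97.3 and 106 to 58 and 47.6 CPM. For Upp1 the hairpin libraries lay above sgMif, at 120 to 140 CPM. Hilpda, a lipid droplet protein raised by low oxygen, fell 2.85-fold, and Txnip, which restrains glucose uptake, 2.76-fold. Transcription factors also fell, with Bcl6, a repressor of inflammatory genes, at 39.6 and 42.2 against 17.3 and 20.8 CPM, Stat5a at 41.8 and 47.1 against 23.7 and 21.3, and Ets2 at 138 and 151 against 79.4 and 75.6. The interferon-induced Ifitm3 and Slfn2 fell 1.87-fold and 3.49-fold.

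Of the 50 program lists, 20 held a called gene and 30 did not, and the medians of those 30 ran from -0.72 to 0.72. Kinetochore genes marked the upper end. Glucocorticoid response genes marked the lower end, where 15 of 17 were negative, none passed in edgeR, 1 was higher and 5 lower at an unadjusted p under 0.05, and DESeq2 called 1 higher and 2 lower. Of 25 lysosomal enzymes and membrane proteins 24 were negative, with a median of -0.24. None passed in edgeR, 9 were lower at an unadjusted p under 0.05 and DESeq2 called 3. The cathepsin gene Ctsl, at 1393 and 1430 CPM in sgSCR against 951 and 937 in sgMif, did not pass (-0.58 ± 0.15, edgeR adjusted p = 0.114).

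Changes were also read by chromosome, since lines without p53 can differ in copy number. Over 11841 genes with a mean of at least 1 log2 CPM, the median log2 fold change was 0.05. Chromosome 13 had a median of 0.18, with 68.4% of its 443 genes positive and 9 called genes, all higher, among them Esm1, F2rl1 and Zfp367. Chromosome X had a median of 0.20, with 72.4% of 362 genes positive and Nsdhl, Col4a5 and Ammecr1 called higher. The other 18 chromosomes had medians of -0.09 to 0.11. Among them chromosome 3 had the most genes called higher, at 7 of 578, beside 9 called lower. Of all 16309 genes tested, 0.368% were called higher. Relative to the sgSCR mean, the median genes of chromosome 13 lay at 0.09 in sgMif 1 and 0.26 in sgMif 2, and those of X at 0.10 and 0.26, so the shift was larger in sgMif 2, the library with few olfactory receptor reads. The control hairpin libraries shSCR 1 and 2 also lay above sgSCR, at 0.08 and 0.07 on chromosome 13 and at 0.16 and 0.20 on X. Genes of a chromosome are not replicates, and whether copy number differed was not tested.

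The guide and the hairpin comparison share no library, so their difference could be tested. It passed for 15 of 16309 genes (0.092%), of which 10 were also called between sgMif and sgSCR. Pla2r1, low in sgMif, held 9.6 and 7.71 CPM in shSCR and 8.29 and 8.53 in shMif, and its difference of effects was -3.46 on the log2 scale (edgeR adjusted p = 0.0471). Enpp2, autotaxin, which makes lysophosphatidic acid, held 119 and 94.6 CPM in sgSCR, 15.9 and 23.8 in sgMif, 50.5 and 34.6 in shSCR and 63.1 and 87.3 in shMif, a difference of -3.25 (edgeR adjusted p = 0.0471). Nes, the intermediate filament nestin, held 183 and 164, 335 and 333, 489 and 524, and 328 and 369 CPM in the same order, a difference of 1.48 (edgeR adjusted p = 0.0487). Enpp2 and Nes thus had fold changes of opposite sign under the guide and the hairpin. Their hairpin effects alone did not pass, at 0.82 and -0.54 (edgeR adjusted p = 0.481 and 0.424). Both Mif-labelled pairs of Nes met at a like level from control pairs that lay on either side. For the other 151 called genes the difference did not pass, which does not show that the effects were alike.

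**Figure D5:**
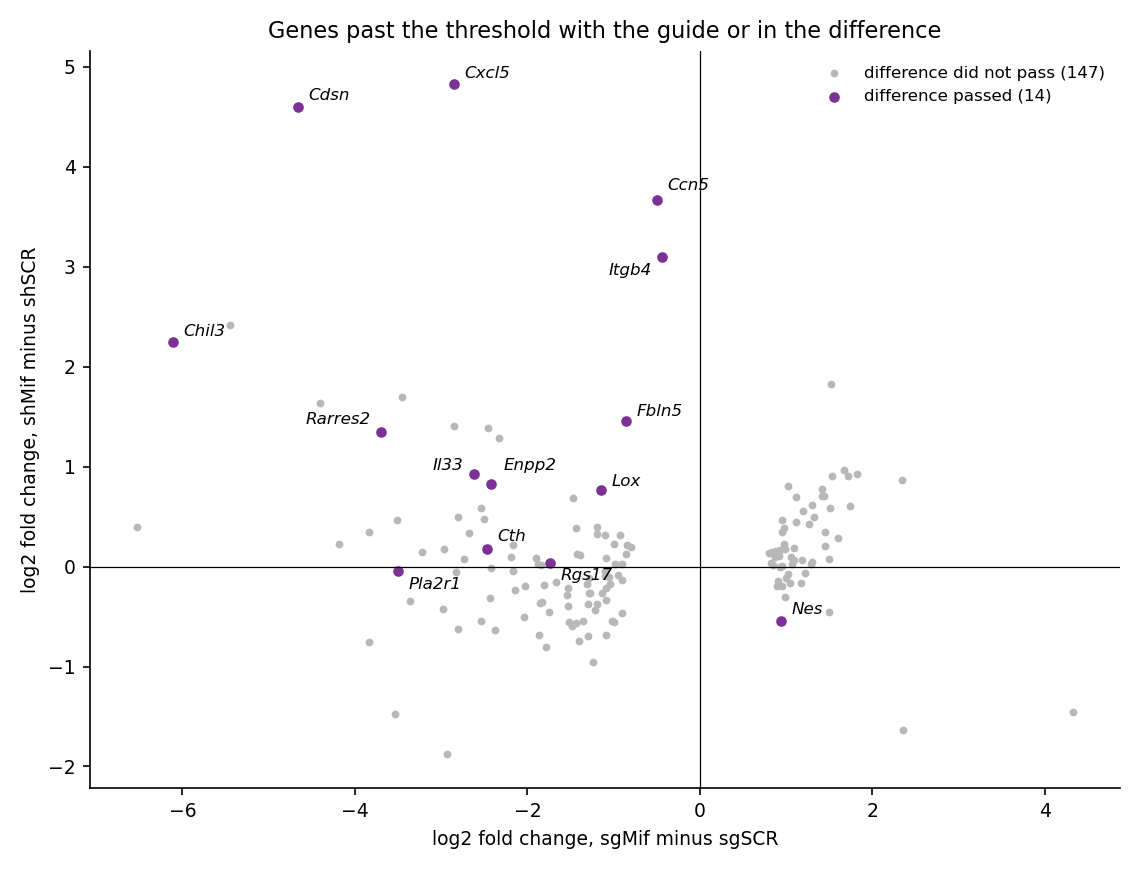
Log2 fold change of sgMif over sgSCR (horizontal) against that of shMif over shSCR (vertical) for the 161 genes, of 166 called in the guide comparison or in the difference of effects, that had reads in every group. Purple points are the 14 of them whose difference passed, and all but Nes lie on the left of the vertical line.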

How the data were processed

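The members and gene lists were chosen with earlier results of these data known. Total RNA of sorted tumour cells was sequenced in 8 libraries, and the submitters' processing notes name Trimmomatic, Salmon and build mm10. The sources used here do not give versions, the index or strandedness. The authors deposited, per the file headers, an estimated count (NumReads) and TPM for each of 116546 transcripts, 1 table per library. The authors' TPM were not used in tests.

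Transcripts were joined to GENCODE M21 by identifier without version (115977 matched, and the 569 others held 0.101 to 0.117% of reads in the sgRNA libraries). Estimated counts were summed over 35498 genes, rounded, filtered with filterByExpr (minimum count 10, minimum total 15) and scaled by TMM. The edgeR 4.0.16 quasi-likelihood test (R 4.3.3) was fitted to 4 group means over 8 libraries with 4 residual degrees of freedom, with Benjamini-Hochberg adjustment over all genes. SE is the log2 fold change divided by the root of F. The steps were tested on simulated data.

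Named genes are Mif, then the 15 highest, 15 lowest and 10 smallest-p called protein-coding genes with at least 1 log2 CPM, no overlap of pairs and no earlier description, up to 4 per list, up to 5 long noncoding genes and 5 per side of the difference. A further 4 genes that the rule would name are not reported here. The 50 program lists, 12 marker lists and sex-linked genes leave out genes described earlier and hold 1387 symbols, of which 10 had no match and were not analysed here. Folds against 0 reads are bounds at 3 counts in each library and, like every count, cover counting error only. Depth per library sets the precision. Alternatives were DESeq2 1.42.0, relative log expression size factors, an unfiltered table, counts scaled by transcript length, protein-coding transcripts only, a replicate block, the 4 sgRNA libraries alone, the 5 libraries with at least 1000 CPM on olfactory receptor genes (1 residual degree of freedom), and leaving out each library. Promoters are from RefSeq (GRCm38.p6). Python 3.11.15 with pandas 2.3.3 and numpy 2.4.6 made the tables.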

Additional observations from a re-analysis of the deposited data

Results flagged for a closer look

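The difference between the guide effect and the hairpin effect passed edgeR's test in 15 genes, listed here on the log2 scale as the guide effect minus the hairpin effect. Pla2r1 had a difference of -3.46 and Rgs17 one of -1.76, with the sgMif pair the lowest of the 8 libraries for both. Cth, which makes cysteine from cystathionine, had a difference of -2.64, with 40.3 and 45.2 CPM in sgSCR and 6.15 to 8.49 in the other 6 libraries. Il33, an alarmin, had -3.55, with 41.7 and 38.3 CPM in sgSCR and 2.33 to 7.8 elsewhere, and Rarres2, chemerin, had -5.04, with 47.6 and 32.6 against 2.28 to 10.5.

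In 3 others a pair of hairpin libraries stood apart from the other 6. Ccn5, a matricellular protein, had -4.16, with 1.82 and 1.51 CPM in shSCR against 18.3 to 39.3 in the other 6 libraries. Itgb4, the integrin beta 4 chain, had -3.53, with 38.3 and 41.6 CPM in shMif against 4.04 to 6.56 in the others. Gm6158, a processed pseudogene, had -10.51, but its shSCR libraries held 0 reads and that fitted value depends on the prior count. In these genes the guide effect did not pass.

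The remaining genes, like all of those above except Pla2r1, had fold changes of opposite sign in the 2 systems. Under the hairpin those of Cth and Rgs17 were only 0.17 and 0.03. None of the remaining genes passed edgeR's test under the hairpin. The guide effects of Fbln5 and Cxcl5 did not pass either (edgeR adjusted p = 0.0884 and 0.0732). Enpp2 had a difference of -3.25, Lox, a collagen cross-linking enzyme, -1.91, and Fbln5, an elastic fibre protein, -2.31. Nes, the one positive gene, had 1.48. Cdsn, a protein of cell junctions in skin, had -9.27, Chil3, a chitinase-like protein of macrophages, -8.35, and the chemokine Cxcl5 -7.68. Those of Cdsn and Cxcl5 rest on at most 2 reads in each shSCR library, and that of Chil3 on 1 and 16 reads in sgMif 1 and 2. No cause of these differences was tested.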

How the results depend on the processing

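All 161 called genes kept their direction under every alternative in which they were fitted. For alternatives fitted to the same counts, the lack of overlap between their pairs largely fixed this in advance. Of the 50 program lists, 17 had a median that changed sign under at least 1 alternative, all with a median within 0.34 of 0, among them fatty acid oxidation, apoptosis regulators, matrix glycoproteins and TGF-beta and BMP signalling, and the other 33 kept their sign. The number of calls moved. Against 60 higher, 101 lower and 15 in the difference of effects, no filter on low counts gave 653, 841 and 1306, DESeq2 483, 507 and 654, and the 5 libraries with at least 1000 CPM on olfactory receptor genes 239, 295 and 999, the last with sgMif 1 alone and 1 residual degree of freedom. Counts scaled by transcript length gave 5, 13 and 0, with 2348 differences at an unadjusted p under 0.05, and protein-coding transcripts alone 39, 89 and 0, with 2166. The 4 sgRNA libraries alone gave 94 and 129. The labels do not say that a replicate number marks a shared mouse or batch, and same-numbered libraries deviated together with correlations of 0.18 and 0.26 over genes. The fit with a replicate block gave 71 higher, 192 lower and 50 in the difference, and called 42 of the 60 higher and 95 of the 101 lower genes again. Leaving out 1 library at a time gave 0 to 182 higher, 0 to 174 lower and 0 to 527 in the difference. Without sgSCR 1, sgSCR 2 or sgMif 2 no gene was called between the guides, and without sgMif 1 there were 2, both lower, where the lone library is assumed to vary like the other groups. Without either shMif library 8 to 16 were higher and 31 to 38 lower, and without either shSCR library 163 to 182 and 163 to 174. The cause of these shifts was not tested. Of the 161 genes, 158 were still called with size factors by relative log expression, 161 in DESeq2, 143 in the high-olfactory libraries and 18 with length scaling. Depth limits low genes such as Ccl24, with 1 and 4 reads in sgMif.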
